A study of Mus musculus with 100 samples.

Results

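Imprinted retrogenes and the genes that host them were compared between fibroblasts and established pluripotent lines. There were 4 nested pairs, *Mcts2* in *H13*, *Zrsr1* in *Commd1*, *Nap1l5* in *Herc3* and *Nnat* in *Blcap*. The 8 genes were taken by symbol from a table of 25965 genes, and each symbol occurred once. The level of each gene and the share of its reads that came from the maternal allele were read in 6 groups of cells, with the nested gene set against its host. *Mcts2* and *Zrsr1* were expressed from the paternal allele in fibroblasts and from both alleles in every pluripotent line. *H13* fell about 10-fold while its guest *Mcts2* rose more than 4-fold. *Nnat* was nearly absent from the embryonic stem cells and present in every other group.

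A retrogene arises when the mRNA of another gene is copied back into DNA and inserted elsewhere, often in an intron of a host gene. *Mcts2*, *Zrsr1* and *Nap1l5* are copies of genes on the X chromosome. The promoter of each is methylated in the egg but not in sperm, so that only the paternal copy is normally used. *Nnat*, which encodes the small membrane protein neuronatin, is likewise a paternally expressed gene lying in an intron of another gene. The hosts have their own promoters and are mostly expressed from both alleles. In *H13*, which encodes signal peptide peptidase, the methylation state at *Mcts2* is known to decide which polyadenylation site is used on each chromosome.

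All cells of the 18 RNA-seq libraries were F1 hybrids carrying 1 C57BL/6 (BL6) and 1 CAST/EiJ (CAST) genome. Female MEFs were embryonic fibroblasts of an i4F-BL6 mother, whose strain carries a doxycycline-inducible cassette of the 4 reprogramming factors, and a CAST father. F KSR2 and F KSR4 (female) and M KSR3 and M KSR5 (male) were iPSC lines from MEFs of that cross, each grown from 1 colony after doxycycline treatment and then kept without it on feeder cells in medium with Knockout Serum Replacement (KSR) and LIF. TX 2i ESCs were the female TX1072 embryonic stem cell line, grown in medium with foetal bovine serum, LIF and 2 kinase inhibitors (2i). For this group line, medium (serum and inhibitors in place of KSR) and cell type cannot be told apart. Each group held 3 libraries, described as biological replicates, and for the lines the replicates share a clone. The paper's methods list 1 female embryo as a source of MEFs, so the 3 MEF libraries would share a donor. Differences between embryos are then not measured in the MEFs. Male MEFs were not among the libraries, so the male lines also differ from the MEFs in sex and donor embryo. No reciprocal cross was included, so the maternal allele is always BL6 and the paternal allele always CAST in the MEFs and iPSCs, and parent and strain cannot be told apart.

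Reads on genes numbered between 13183036 and 17921280 per library, and 17.7% to 19.9% of them could be assigned to an allele. The labelled cell types carried their markers. *Pou5f1*, the pluripotency factor Oct4, had no read in the MEFs and averaged 999.7 to 1466 RPM (reads scaled to the library total) in the pluripotent groups, and the summed level of 10 fibroblast genes in the pluripotent libraries was at most 0.776% of the MEF mean, the highest being M KSR5 replicate 3. M KSR3 stood apart in other markers. Its summed level of 4 endoderm genes averaged 97.8 RPM, against 6.66 to 20.4 in every other group. *Pdgfra*, 1 of the fibroblast genes, averaged 35.5 RPM in M KSR3, 87.0 in the MEFs and 0.82 to 5.91 in the other pluripotent groups. What part this has in other values of M KSR3 was not tested. Chromosome 6, which carries *Nap1l5* and *Herc3*, stood apart in 1 line: 96.8% ± 3.1 (SD, n = 3) of its allelic reads were maternal in F KSR2, against 48.6% to 54.3% in the other 15 libraries. Chromosome 2 lay between 51.2% and 52.9% in all 18 libraries. Chromosome 11 was at 61.7% ± 0.1 in M KSR3, but the 9 genes measured within 1 Mb of *Zrsr1* had a median of 52.1% in that line, near the 51.5% of the MEFs.

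The 4 pairs differ in their arrangement (GRCm38, positions of the deposited table). *Mcts2* (chr2:152687148-152687940, plus strand) has a single exon and lies in intron 4 of the full-length *H13* transcripts (chr2:152669461-152708670) on the same strand, so unspliced *H13* RNA in that intron would count as *Mcts2*. In GENCODE M21, where *Mcts2* starts at 152687035, the short transcript H13-203 ends 334 bases before it. *Zrsr1* (chr11:22972005-22976496, plus strand), a single-exon copy of the splicing factor gene *Zrsr2*, lies antisense in intron 1 of the longer *Commd1* transcripts (chr11:22834744-22982382, minus strand), and 412 of its 4492 exonic bases overlap an exon of a shorter *Commd1* transcript on the other strand. *Nap1l5* (chr6:58905234-58907126, minus strand), a member of the nucleosome assembly protein family, lies antisense in intron 22 of Herc3-202 (*Herc3* chr6:58831465-58920398, plus strand). *Nnat* (chr2:157560078-157562522, plus strand) has up to 4 exons and lies antisense within an intron of *Blcap* (chr2:157556362-157571274, minus strand). Among the 8 genes *Mcts2* alone carries the annotation tag for a retrogene.

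The promoters of the nested genes are shown because the parental methylation mark lies at these starts. The 250 bases before each start listed above are given 5′ to 3′ on the strand of the gene, from RefSeq (GRCm38.p6). Capitals mark TGCCGC or its complement GCGGCA, the core of the motif bound by ZFP57 when methylated. The GENCODE M21 start of *Mcts2*, 152687035, lies inside its window. The windows are chr2:152686898-152687147 (*Mcts2*), chr11:22971755-22972004 (*Zrsr1*), chr6:58907127-58907376 (*Nap1l5*) and chr2:157559828-157560077 (*Nnat*).
Mcts2: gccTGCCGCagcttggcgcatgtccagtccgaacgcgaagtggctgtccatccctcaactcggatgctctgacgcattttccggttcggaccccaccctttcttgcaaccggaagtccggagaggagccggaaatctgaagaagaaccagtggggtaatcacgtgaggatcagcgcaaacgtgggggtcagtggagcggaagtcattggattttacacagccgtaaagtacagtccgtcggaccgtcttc
Zrsr1: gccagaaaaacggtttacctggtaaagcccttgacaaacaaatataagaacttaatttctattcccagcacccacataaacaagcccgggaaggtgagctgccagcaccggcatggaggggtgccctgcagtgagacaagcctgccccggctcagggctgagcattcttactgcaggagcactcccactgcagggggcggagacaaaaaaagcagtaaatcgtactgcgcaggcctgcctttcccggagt
Nap1l5: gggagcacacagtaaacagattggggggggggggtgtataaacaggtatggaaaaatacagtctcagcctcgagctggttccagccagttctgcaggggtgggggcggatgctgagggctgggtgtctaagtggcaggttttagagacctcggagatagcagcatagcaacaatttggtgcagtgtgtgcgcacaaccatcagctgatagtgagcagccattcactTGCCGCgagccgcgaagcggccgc
Nnat: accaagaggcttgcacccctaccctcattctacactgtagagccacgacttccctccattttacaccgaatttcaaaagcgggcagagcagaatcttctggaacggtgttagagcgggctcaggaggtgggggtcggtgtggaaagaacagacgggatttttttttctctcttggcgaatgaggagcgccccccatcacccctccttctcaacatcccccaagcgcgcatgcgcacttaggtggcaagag
The *Mcts2* window holds 20 CpG dinucleotides, more than 82.0% of 32841 promoters of the same length have. *Nnat* has 12, *Nap1l5* has 10 and *Zrsr1* has 8, against a median of 6. On either strand the hexamer occurs once in *Mcts2* and once in *Nap1l5*, and 8.68% of all these windows hold it. No match was found in the *Zrsr1*, *Nnat* or host windows, which says only that these letters are not in these bases.

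Levels are given as log2 RPM, the unit of the deposited values, in which reads on a gene are scaled to the total reads of the library and not corrected for gene length. *Mcts2*, which encodes a translation re-initiation factor, stood at 2.36, 2.06 and 2.41 in the MEFs. F KSR2 had 4.37, 4.55 and 4.42, F KSR4 had 4.51, 4.09 and 5.28, M KSR3 had 4.21, 4.79 and 4.64, M KSR5 had 3.82, 4.44 and 4.66, and TX 2i ESCs had 4.11, 4.18 and 3.88. Every pluripotent library lay above every MEF library. How many of all genes separate without overlap was not counted, here or for the genes below. Of all genes tested 74.6% were called between the pluripotent groups and the MEFs. The mean of the 5 pluripotent groups was higher than that of the MEFs by 2.12 (SE 0.22) on the log2 scale, or 4.34-fold (limma with Benjamini-Hochberg adjustment over 14632 genes, adjusted p = 1.45e-07). Each pluripotent group also differed from the MEFs for *Mcts2* on its own, where 65.8% (F KSR4), 66.5% (TX 2i ESCs), 67% (F KSR2), 67.6% (M KSR3) and 67.9% (M KSR5) of all genes did. None of the 10 comparisons between pluripotent groups passed the test for *Mcts2*. Of all genes 1.14%, 2.34%, 2.82%, 4.48%, 10.7% and 13.1% were called between pairs of iPSC lines, and 12.8%, 15.4%, 18.2% and 23.1% between TX 2i ESCs and F KSR2, F KSR4, M KSR5 and M KSR3.

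*H13* moved the other way. Its log2 level was 7.62, 7.79 and 7.91 in the MEFs. F KSR2 lay at 4.53 to 5.03, F KSR4 at 3.83 to 4.78, M KSR3 at 4.69 to 4.74 and M KSR5 at 4.51 to 4.92, while TX 2i ESCs had 3.51, 3.40 and 3.65. The MEF libraries did not overlap with any other, and the fall of 3.32 (SE 0.18) in log2 was 9.98-fold (limma, adjusted p = 2.10e-11). TX 2i ESCs lay below all 4 iPSC lines, with adjusted p values from 0.000981 to 0.0108, while no iPSC line differed from another beyond its spread.

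*Zrsr1* stood at 4.00, 3.82 and 3.71 in the MEFs and between 4.57 and 5.95 in the pluripotent libraries, again without overlap. From high to low the group means (± SD, n = 3) were F KSR2 5.59 ± 0.35, TX 2i ESCs 5.31 ± 0.31, F KSR4 5.27 ± 0.38, M KSR3 4.99 ± 0.10 and M KSR5 4.76 ± 0.28. *Zrsr1* rose 2.53-fold over the MEFs (log2 difference 1.34, SE 0.18, limma, adjusted p = 3.15e-06), and no comparison between pluripotent groups passed the test. *Commd1*, whose product takes part in copper handling and endosomal sorting, rose by 0.47 (SE 0.14) in log2, or 1.39-fold (limma, adjusted p = 0.00651), from 5.80 to 5.93 in the MEFs to 5.88 to 6.80 in the pluripotent libraries. These ranges touched, with 1 TX 2i ESC library inside the range of the MEFs. Each iPSC line on its own was called against the MEFs for *Commd1* (limma, adjusted p from 0.0065 to 0.0275). TX 2i ESCs were not (0.22, limma, adjusted p = 0.304). The calls of F KSR4, M KSR3 and M KSR5 were lost under 5, 5 and 3 of 25 alternatives (limma, adjusted p up to 0.171).

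The other 2 pairs were less uniform. *Blcap*, a tumour suppressor gene first described in bladder cancer, fell from 5.87, 6.15 and 6.21 to between 3.91 and 4.84, with no overlap (log2 difference −1.65, SE 0.16, limma, adjusted p = 6.22e-08). *Herc3*, a ubiquitin ligase gene, lay between 3.32 and 4.43 in the MEFs and between 3.31 and 4.79 elsewhere. *Nap1l5* was the lowest of the 8, with 13 to 99 reads per library, and its log2 level of 0.05, 1.03 and 1.30 in the MEFs fell inside the pluripotent range of −0.48 to 2.34. The pluripotent means of *Herc3*, *Nap1l5* and *Nnat* differed from the MEFs by 0.07 (SE 0.21), 0.14 (SE 0.37) and −1.29 (SE 0.58) in log2, with adjusted p of 0.775, 0.744 and 0.053 (limma). Thus 3 of the 8 genes were higher in pluripotent cells and 2 were lower, where 42.1% and 32.5% of all genes tested were called in those directions (74.6% in either), and the median difference was 0.10 over the 8 genes and 0.21 over all genes. Scaling by the median of ratios in place of total reads shifted every pluripotent to MEF difference by −0.18, turned the uncalled differences of *Nap1l5* and *Herc3* to −0.04 and −0.11, and left the direction of the 5 called genes as it was.

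**Figure D1:**
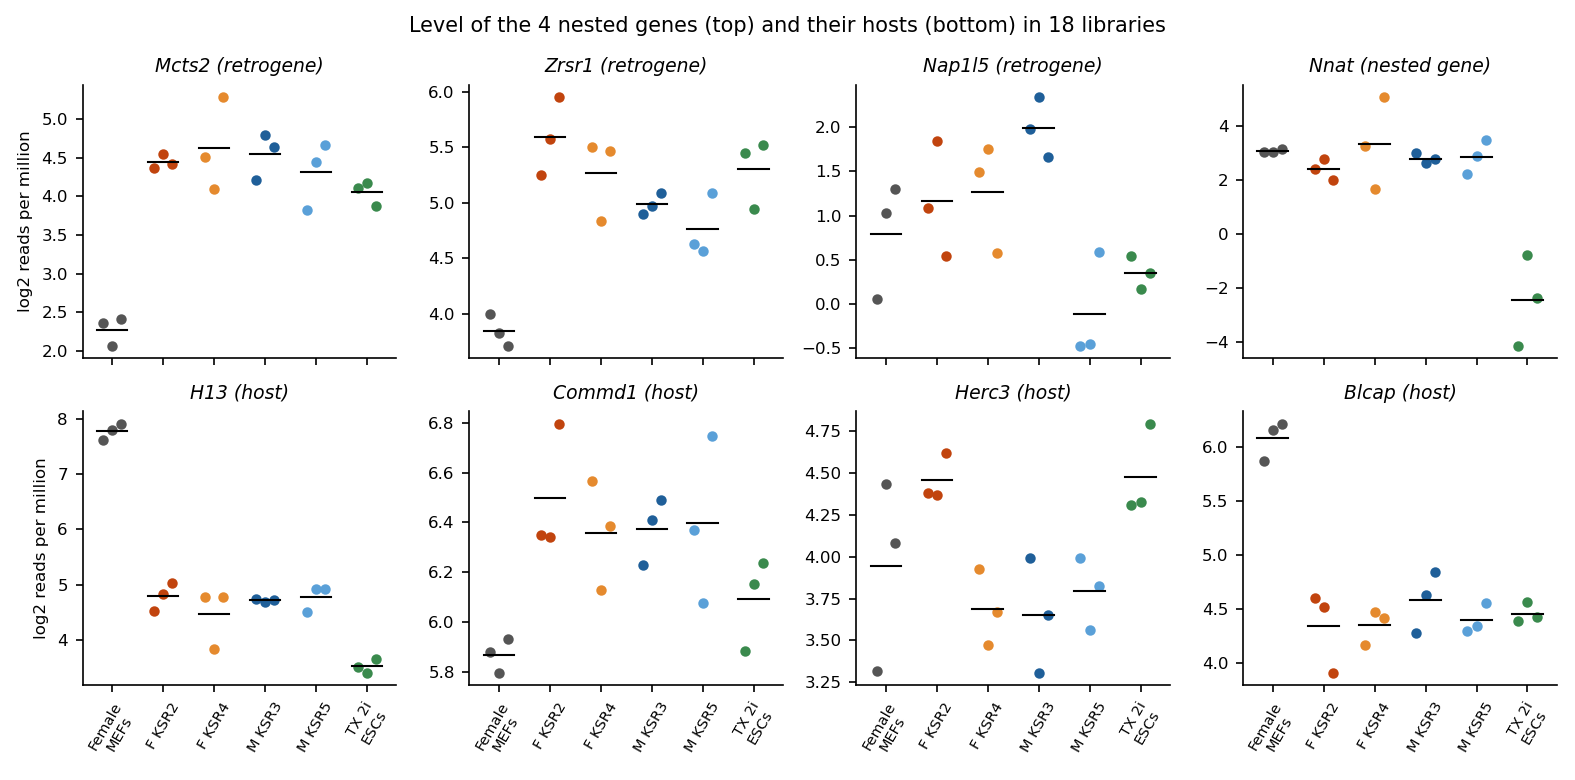
Log2 RPM (y axis, each panel with its own scale) of the 4 nested genes (top) and their hosts (bottom) in 6 groups, with 1 point per library and a line at the mean of 3. *Mcts2* and *Zrsr1* lie above the MEFs in every pluripotent library, *H13* and *Blcap* lie below, and *Nnat* drops to between −4.16 and −0.77 in TX 2i ESCs.

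The maternal share, the percentage of allele-assigned reads that carried BL6 bases, separated the nested genes from their hosts in fibroblasts. *Mcts2* had 0 of 15, 0 of 16 and 1 of 13 maternal reads in the MEFs, and *Zrsr1* had 0 of 17, 0 of 23 and 0 of 20. With so few reads the 95% Wilson intervals reached up to 33.3% for *Mcts2* and up to 18.4% for *Zrsr1*. Over the 3 libraries 0 of 60 *Zrsr1* reads and 1 of 44 *Mcts2* reads were maternal (pooled Wilson intervals 0% to 6.02% and 0.402% to 11.8%). These intervals cover counting error only. A share of at most 10% was found in 14 of 6743 autosomal genes with at least 20 allelic reads in every library, or 0.208%, a set that holds neither of these genes because of their depth.

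In the pluripotent lines both genes were biallelic. The maternal share of *Mcts2* was 45.2%, 30.4% and 56.8% for TX 2i ESCs, 62.5%, 50.0% and 52.7% for F KSR2, 43.4%, 54.3% and 56.3% for F KSR4, 51.1%, 53.2% and 52.5% for M KSR3, and 67.6%, 51.6% and 50.8% for M KSR5. The lowest and the highest of these 15 values, 30.4% (19.1% to 44.8%) in TX 2i ESC replicate 2 and 67.6% (51.5% to 80.4%) in M KSR5 replicate 1, were the only ones whose Wilson interval left out 50%. For *Zrsr1* TX 2i ESCs had 46.4%, 56.9% and 55.3%, F KSR2 had 65.2%, 56.1% and 55.4%, F KSR4 had 55.9%, 53.5% and 70.0%, M KSR3 had 57.7%, 48.9% and 52.8%, and M KSR5 had 40.7%, 44.8% and 55.3%. The 70.0% of F KSR4 replicate 3 rests on 10 allelic reads of 656, whereas the other pluripotent libraries had 26 to 101.

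The log2 ratio of maternal to paternal reads rose by 4.46 (SE 0.39, adjusted p = 8.06e-08) for *Mcts2* and by 5.59 (SE 0.28, adjusted p = 2.54e-11) for *Zrsr1* between the MEFs and the pluripotent groups (limma over 9613 genes, with 0.5 read added to each allele, an addition on which the size depends because the MEF counts are at or near 0). Each of the 5 pluripotent groups differed from the MEFs on its own for both genes, the largest adjusted p being 2.16e-05, for *Mcts2* in TX 2i ESCs, where 11.1% (M KSR5), 11.2% (F KSR4), 15.9% (F KSR2), 17.5% (TX 2i ESCs) and 21% (M KSR3) of all genes tested differed. No comparison between pluripotent groups passed the test for either gene, the smallest adjusted p being 0.461 for *Mcts2* and 0.375 for *Zrsr1*. Of all genes 6.93%, 9.55%, 11%, 11.6%, 11.9% and 21.6% were called between pairs of iPSC lines, and 10.2%, 14.1%, 15.1% and 22.2% between TX 2i ESCs and an iPSC line. The lowest share of any pluripotent library, 30.4% for *Mcts2* and 40.7% for *Zrsr1*, lay above the highest MEF share.

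*H13* also changed its allelic balance, in the opposite direction. In the MEFs 65.3%, 65.4% and 64.6% of its reads were maternal (65.1% ± 0.42, SD, n = 3, between 645 and 927 allelic reads per library). The 16 neighbouring genes within 1 Mb had a median of 52.9% in the same cells, with a range from 41.2% to 66.8% that includes the share of *H13*. A share at or above that of *H13* was found in 3.46% of autosomal genes. In the pluripotent libraries *H13* ranged from 40.3% to 56.0%, below every MEF value, with the lowest mean in F KSR4 (42.9% ± 2.9, SD, n = 3) and the highest in M KSR3 (52.7% ± 4.0). The log2 allelic ratio fell by 0.93 (SE 0.14, limma, adjusted p = 9.92e-05), and each pluripotent group differed from the MEFs on its own with adjusted p between 0.000178 and 0.00713. The gene-level table does not separate the short and the long *H13* transcripts.

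*Commd1* was biallelic throughout, at 52.4%, 46.4% and 59.1% in the MEFs and 43.9% to 63.6% in the pluripotent libraries (limma, adjusted p = 0.690). *Blcap* lay at 51.9%, 54.4% and 47.8% in the MEFs and, on 13 to 37 reads per library, between 22.2% and 78.6% elsewhere (limma, adjusted p = 0.758). *Herc3* was at 24 of 49 reads, 51.1% and 62.0% in the MEFs and at 51.2% to 69.2% in 12 pluripotent libraries, but at 100%, 100% and 96.9% in F KSR2, the line in which chromosome 6 as a whole was maternal. The call for *Herc3* across the pluripotent groups (log2 ratio 1.67, SE 0.43, limma, adjusted p = 0.00832) was lost without F KSR2 (0.45, adjusted p = 0.211) and also without MEF replicate 1 (1.53, adjusted p = 0.0547). Of the 6 genes with enough allelic reads, 3 shifted towards the maternal allele and 1 away from it, where 14.3% and 7.21% of all genes tested were called in those directions (21.5% in either).

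**Figure D2:**
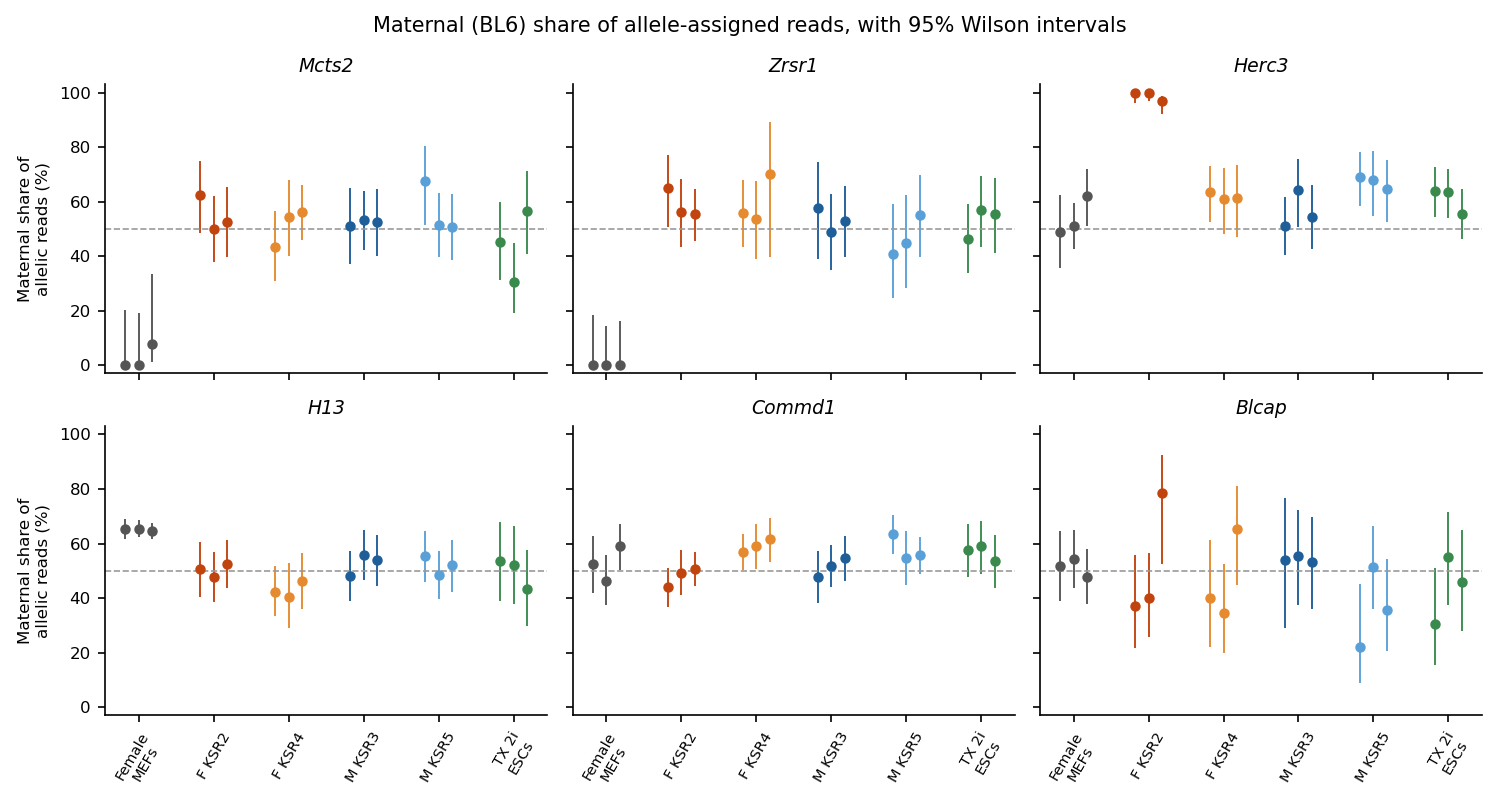
Maternal (BL6) share of allele-assigned reads in percent (y axis) for the 6 genes with at least 5 such reads, with 1 point per library, bars for the 95% Wilson interval and a dashed line at 50%. *Mcts2* and *Zrsr1* go from 0% to 7.69% in the MEFs to between 30.4% and 70.0% in the pluripotent libraries, *H13* goes down from about 65%, and *Herc3* is at 96.9% to 100% in F KSR2.

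The allelic state of the other 2 nested genes could not be read. Of 2293 *Nnat* reads in all 18 libraries 1 was assigned to an allele, and of 710 *Nap1l5* reads 13 were, never more than 3 in a library. For *Nap1l5* the MEFs had 2 paternal and 0 maternal reads, and F KSR2, the line with maternal chromosome 6 reads, had 5 maternal and 0 paternal reads. M KSR3 had 1 maternal and 3 paternal reads, F KSR4 had 1 maternal read, M KSR5 had 1 paternal read, and TX 2i ESCs had none. No test was made on these counts.

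Scaling the reads of each allele to the depth of the library (allelic RPM) showed which allele accounted for the change in level. Maternal *Mcts2* reads rose from 1 read in 3 MEF libraries to 427 in 15 pluripotent libraries, a 92.4-fold difference in RPM with a counting interval from 16.5 to 3659. Paternal *Mcts2* reads also rose, from 0.86 ± 0.15 to 1.71 ± 0.51 RPM (SD, n = 3 and 15), or 1.99-fold (exact two-sided permutation test, adjusted p = 0.0168 over 12 tests). For *Zrsr1* the maternal allele went from 0 reads to 1.60 ± 0.77 RPM, at least 26.8-fold higher than the limit set by 3 reads over the 3 MEF libraries (exact permutation test, adjusted p = 0.0049). Paternal *Zrsr1* reads were at 1.19 ± 0.08 in the MEFs and 1.35 ± 0.62 in pluripotent cells (exact permutation test, adjusted p = 0.657). *Zrsr1* thus rose on the maternal allele, and *Mcts2* on both.

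*H13* fell on both alleles, and by more on the maternal one. Maternal *H13* reads went from 31.6 ± 3.4 to 2.90 ± 0.96 RPM, a 10.9-fold difference, and paternal reads from 16.97 ± 2.05 to 2.95 ± 0.93, a 5.76-fold difference (exact permutation test, adjusted p = 0.0049 for each, n = 3 and 15). *Blcap* fell 3.04-fold on the maternal and 2.48-fold on the paternal allele (exact permutation test, adjusted p = 0.0049 for each). The changes of *Commd1* and *Herc3* per allele did not pass the test. A permutation p of 0.00245 before adjustment is the smallest this design can give, and libraries of 1 line are not independent lines. These tests were chosen after the data had been seen.

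**Figure D3:**
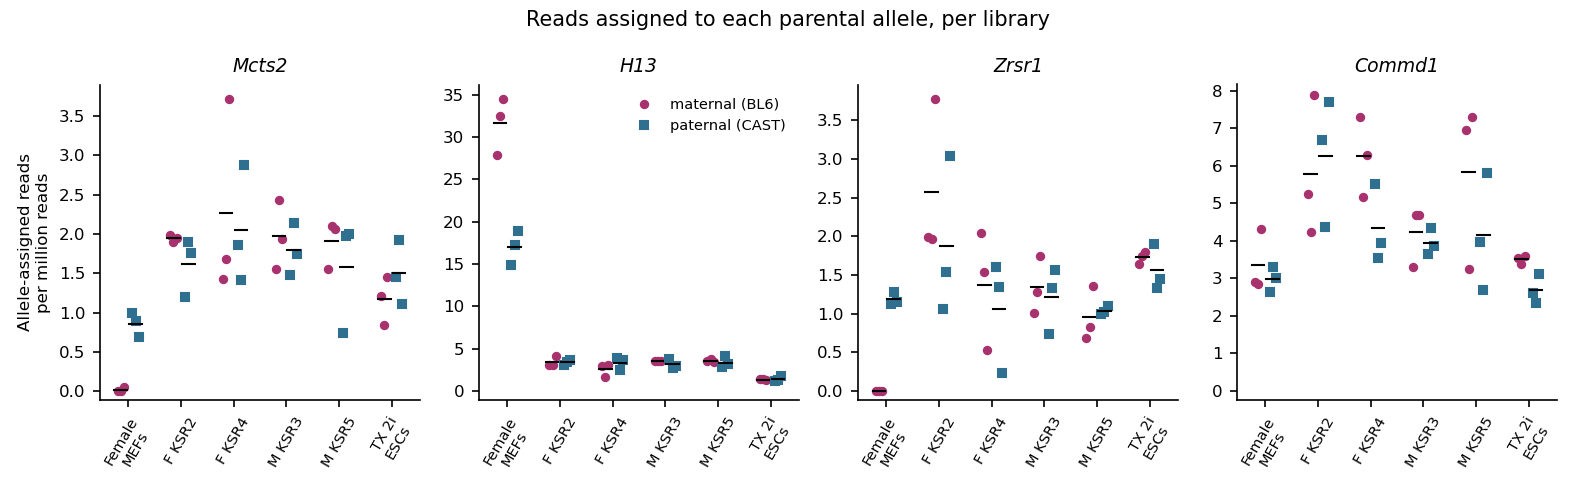
RPM assigned to the maternal (circles) and the paternal (squares) allele (y axis, each panel with its own scale) for *Mcts2*, *H13*, *Zrsr1* and *Commd1*, with 1 point per library and a line at each group mean. The maternal allele of *Mcts2* and *Zrsr1* is at or near 0 in the MEFs and near the paternal one in the pluripotent groups, and *H13* falls from 31.6 and 16.97 in the MEFs to about 2.9 on each allele.

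Setting each nested gene against its host within a library removed the depth of the library. The log2 level of *Mcts2* minus that of *H13* was −5.50 ± 0.24 in the MEFs (SD, n = 3) and −0.06 ± 0.46 in the pluripotent libraries (n = 15), a shift of 5.44 (exact two-sided permutation test, adjusted p = 0.0049 over 4 pairs). For *Zrsr1* minus *Commd1* the shift was 0.87, from −2.03 ± 0.18 to −1.16 ± 0.37 (exact permutation test, adjusted p = 0.0049). For both pairs no pluripotent library overlapped with a MEF library. This test counts the 3 libraries of a line as independent, which they are not. *Nap1l5* minus *Herc3* was −3.15 ± 0.33 in the MEFs and −3.08 ± 1.09 in the pluripotent libraries, and *Nnat* minus *Blcap* was −2.996 ± 0.151 and −2.63 ± 2.42 (exact permutation test, adjusted p = 0.944 for each). For *Nnat* minus *Blcap* this test pools iPSCs and TX 2i ESCs, which lay on opposite sides of the MEFs. The iPSC libraries ranged from −2.79 to 0.66, the MEFs from −3.10 to −2.82 and TX 2i ESCs from −8.54 to −5.33. These parts were not tested apart.

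Per kilobase of exon (RPM divided by the union of exons in GENCODE M21), *Mcts2* stood at 5.34 ± 0.67 and *H13* at 24.7 ± 2.5 in the MEFs (SD, n = 3). In the pluripotent libraries *Mcts2* stood at 23.9 ± 6.8 and *H13* at 2.63 ± 0.84, so that the retrogene was above its host in 15 of 15 pluripotent and in 0 of 3 MEF libraries. *Zrsr1* remained below *Commd1* in all 18 libraries, at 3.21 ± 0.33 against 9.86 ± 0.47 in the MEFs and 8.38 ± 2.32 against 13.9 ± 2.4 in the pluripotent libraries. On the same scale *Nnat* exceeded *Blcap* in 1 library, F KSR4 replicate 3, and *Nap1l5* exceeded *Herc3* in the 3 libraries of M KSR3 and in 1 of F KSR4.

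The maternal shares of retrogene and host were far apart in the MEFs and close in the pluripotent cells. The share of *H13* exceeded that of *Mcts2* by 62.5 ± 4.9 percentage points in the MEFs, and the share of *Commd1* exceeded that of *Zrsr1* by 52.6 ± 6.3 (SD, n = 3). Over the 15 pluripotent libraries the same differences were −2.41 ± 9.55 and 0.34 ± 10.4 percentage points, with the host higher in 5 and in 9 libraries (exact two-sided sign-flip permutation test, adjusted p = 0.695 and 0.899). Over the 5 group means the exact permutation p was 0.50 and 0.938, where 0.0625 is the smallest p that 5 values allow. The spread between libraries leaves room for differences of several percentage points.

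**Figure D4:**
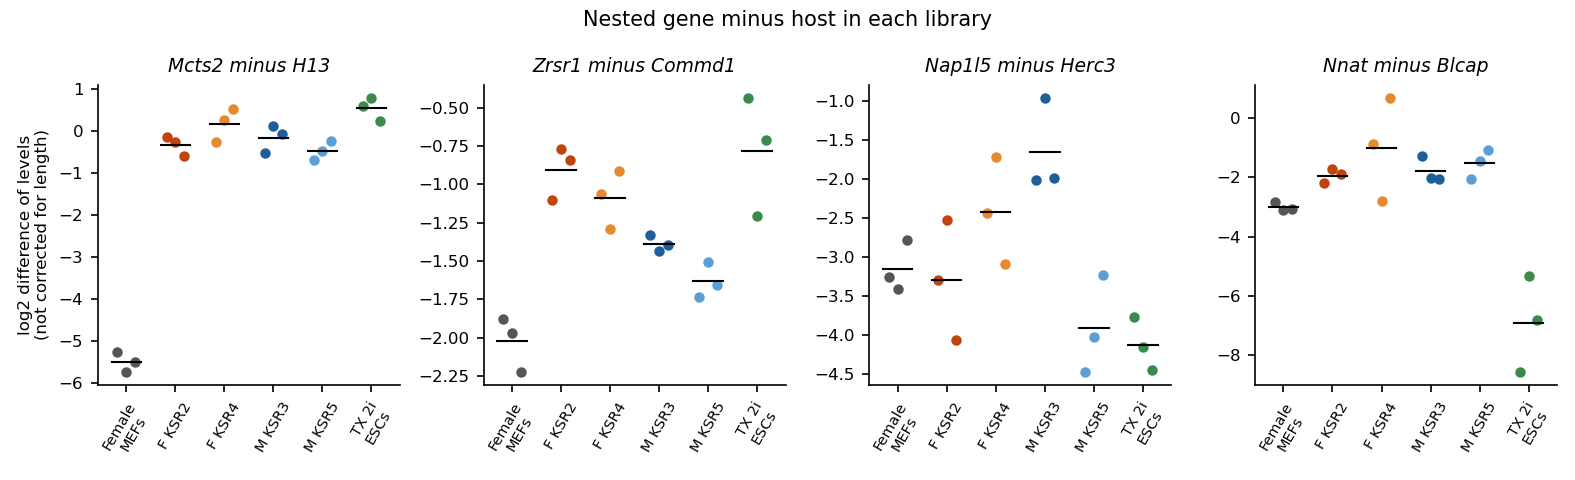
Log2 level of the nested gene minus that of its host in each library (y axis, each panel with its own scale, not corrected for length), with 1 point per library and a line at the mean of each group. *Mcts2* minus *H13* moves from about −5.5 in the MEFs to about 0 in all pluripotent groups, *Zrsr1* minus *Commd1* moves by 0.87, and *Nnat* minus *Blcap* is lowest in TX 2i ESCs.

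*Nnat* set the iPSCs apart from the embryonic stem cells. The MEFs had 135, 163 and 168 reads, F KSR2 had 94, 129 and 66, F KSR4 had 175, 58 and 500, M KSR3 had 136, 120 and 123, and M KSR5 had 85, 132 and 194, but TX 2i ESCs had 1, 11 and 3 reads. No library of another group came near the 3 ESC libraries, and the 500 reads of F KSR4 replicate 3 were the highest value. The iPSC mean exceeded that of TX 2i ESCs by 5.29 (SE 0.59) in log2 (limma, adjusted p = 1.04e-05; 2.73 with 1 added to the linear value), and the pooled RPM differed 30.4-fold, with a counting interval from 18.4 to 54.5. Without F KSR4 replicate 3 the pooled ratio was 23.7, and without TX 2i ESC replicate 2, which holds 11 of the 15 ESC reads, it was 73.7 (28.7 to 270.9), both chosen after the data had been seen. The log2 difference was 6.12 without that ESC library. TX 2i ESCs were also below the MEFs by 5.52 (SE 0.75, limma, adjusted p = 4.70e-06), while no iPSC line differed from the MEFs for *Nnat*. *Nnat* is a gene of neural and endocrine cells, and the summed level of 4 neural markers was 43.1 to 153 RPM in the iPSC libraries and 57.8 to 151 in TX 2i ESCs. The group means of *Pax6*, *Neurod1* and *Sox1* were 1.62 to 7.21, 4.43 to 7.65 and 10.7 to 31.6 RPM in the iPSC lines against 0.32, 0.57 and 7.71 in TX 2i ESCs, whereas *Tubb3*, most of the sum, was 38.0 to 72.8 against 93.4. Their part in the result was not tested. In bulk RNA fewer cells that express a gene and less RNA per cell cannot be told apart.

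*Blcap*, the host, did not follow *Nnat*. Its group means lay between 4.34 and 4.58 in the 5 pluripotent groups and none of the 10 comparisons between them passed the test. Besides *Nnat*, *H13* was higher in the iPSCs than in TX 2i ESCs, by 1.17 (SE 0.18) in log2 or 2.25-fold (limma, adjusted p = 0.000209). *Herc3* was at −0.58 (SE 0.22, limma, adjusted p = 0.0652) and was called without F KSR2 (−0.77, adjusted p = 0.0314). Thus 2 of the 8 genes were higher in the iPSCs and none was lower, where 11% and 12% of all genes tested were called in those directions (23% in either). In the allelic ratio *Herc3* alone was called between the iPSCs and TX 2i ESCs (1.58, SE 0.43, limma, adjusted p = 0.0133, where 17.4% of genes tested were called higher and 19.8% in either direction), and without F KSR2 its difference was 0.05 (adjusted p = 0.927). The difference for *Mcts2* was 0.57 (SE 0.40, limma, adjusted p = 0.410).

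*Nap1l5* varied among the iPSC lines. Its highest group mean was that of M KSR3, with 1.98, 2.34 and 1.66 (68, 99 and 57 reads), and its lowest that of M KSR5, with −0.48, −0.46 and 0.59 (13, 13 and 26 reads). Single libraries of other groups lay among both, such as F KSR2 replicate 2 at 1.84 and MEF replicate 1 at 0.05. M KSR5 lay below M KSR3 by a difference of 2.11 (SE 0.48) in log2 (limma, adjusted p = 0.0185, where 4.48% of genes tested were called). M KSR3 also lay above TX 2i ESCs by 1.64 (SE 0.48, limma, adjusted p = 0.0194, where 23.1% of genes were called) and above the MEFs by 1.20 (SE 0.48, limma, adjusted p = 0.034, where 67.6% were called). These calls did not hold without single libraries. The call between the male lines was lost without any 1 library of M KSR3 or without M KSR5 replicate 1 or 2, with adjusted p up to 0.104. Against TX 2i ESCs the call was lost without M KSR3 replicate 2 or TX 2i ESC replicate 2 or 3, up to 0.0841, and against the MEFs without MEF replicate 1 or M KSR3 replicate 1 or 2, up to 0.173 (limma). The order of the group means was M KSR3 at 2.00, F KSR4 at 1.27, F KSR2 at 1.16, MEFs at 0.80, TX 2i ESCs at 0.35 and M KSR5 at −0.11, and no neighbours in this order differed beyond their spread. In F KSR2, with almost no paternal reads on chromosome 6, *Nap1l5* had 38, 67 and 24 reads, inside the range of the other groups. *Herc3* was higher in TX 2i ESCs than in M KSR3 by 0.83 (SE 0.28, limma, adjusted p = 0.0388), its only called difference between groups in level, and this call was lost without M KSR3 replicate 2 or 3 or any TX 2i ESC library (adjusted p up to 0.172).

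Between the 6 female and the 6 male iPSC libraries none of the 8 genes passed the test in level, where 2.87% of 13609 genes did, and none of the 6 genes with allelic reads passed in the allelic ratio, where 3.64% of 10687 genes did (limma). The lowest unadjusted p values among the members (limma) were 0.0094 for *Zrsr1* in level, and 0.0359 for *Herc3* and 0.0464 for *Zrsr1* in allelic ratio. None of these passed after adjustment. *Zrsr1* was 5.43 ± 0.37 in female and 4.88 ± 0.23 in male libraries (SD, n = 6), a log2 difference of 0.56 (SE 0.19, limma, adjusted p = 0.125), which passed the test when libraries were scaled by the median of ratios (0.65, adjusted p = 0.0445). Its maternal share was 59.4% ± 6.6 and 50.0% ± 6.5 in these libraries (log2 ratio 0.53, SE 0.24, limma, adjusted p = 0.294). The sexes are represented by 2 lines each, so sex and line cannot be told apart.

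The genes from which the retrogenes are thought to derive, and related genes, were set beside them. Their transcripts are distinguishable: the longest run of identical bases was 29 between *Mcts2* and *Mcts1*, 37 between *Zrsr1* and *Zrsr2*, and 14 between *Nap1l5* and either *Nap1l2* or *Nap1l3*. *Mcts1* was at 4.88 in the MEFs and 5.14 in pluripotent cells (log2 difference 0.26, SE 0.21, limma, adjusted p = 0.272). By group *Mcts1*, an X-linked gene, stood at 5.18 to 5.36 in TX 2i ESCs, 5.37 to 5.64 in F KSR2 and 4.69 to 5.96 in F KSR4. The male lines had 4.38 to 5.05 and the MEFs 4.74 to 5.05, and the range of F KSR4 overlapped with both. Between female and male iPSC libraries the log2 difference of *Mcts1* was 0.77 and did not pass the test (SE 0.21, limma, adjusted p = 0.0654). *Zrsr2* rose with *Zrsr1*, from 5.67 to 6.72 (1.04, SE 0.12, limma, adjusted p = 3.96e-07). It too is X-linked, and stood at 6.63 to 7.42 in the female pluripotent libraries and 5.82 to 6.28 in the male ones, against 5.65 to 5.72 in the MEFs. It was higher in female than in male iPSC libraries by 0.87 (SE 0.14, limma, adjusted p = 0.00359), the 1 of the 7 source and related genes called between the sexes, where 2.87% of all genes were. *Nap1l2* rose by 1.36 (SE 0.31) and *Nap1l1* by 1.25 (SE 0.12), with adjusted p of 0.000647 and 6.85e-08 (limma). Of these 7 genes, which include *Nap1l3*, *Nap1l4* and the *Zrsr* relative *U2af1*, 5 rose and none fell against the MEFs, where 42.1% and 32.5% of all genes did (74.6% in either direction), so the share called was near that of all genes.

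Genes that keep imprints through DNA replication, or that place methylation, were all measured. Of 9 genes, 8 were higher in the pluripotent groups than in the MEFs and none was lower, with a median log2 difference of 2.93, where 42.1% of all genes were called higher, 32.5% lower and 74.6% in either direction, with a median of 0.21. *Zfp57*, whose product binds the methylated imprinting control regions, rose from 5.35 to 8.44 (3.09, SE 0.31), and *Trim28*, its partner, from 8.26 to 10.6 (2.39, SE 0.20), with adjusted p of 9.63e-08 and 8.88e-09 (limma). *Dnmt1*, the maintenance methyltransferase, rose by 1.65 (SE 0.17) and its recruiter *Uhrf1* by 2.93 (SE 0.18). *Dppa3*, which protects methylation in the early embryo, and *Dnmt3l*, a cofactor of de novo methylation, had 1 to 5 and 3 to 5 reads per library in the MEFs. *Zfp445*, a second zinc finger gene of imprint maintenance, was at 3.91 in the MEFs and 4.17 in the pluripotent groups (adjusted p = 0.591, limma). Between the iPSCs and TX 2i ESCs, *Dnmt3a* alone of the 9 was called, higher in the iPSCs by 1.59 (SE 0.26, limma, adjusted p = 0.000282), where 23% of all genes were called.

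Over the 18 libraries and 14632 genes the levels most like that of *Mcts2* were those of *Lsm5*, *Nfu1* and *Dpy30*, with Pearson r from 0.976 to 0.978, while r with its host *H13* was −0.77. For *Zrsr1* they were *Atp9a*, *Snx10* and *Siah1b* (r from 0.941 to 0.961), and r with *Commd1* was 0.685. For *Nap1l5* they were *Cxcr4* and *Slc19a2*, both on chromosome 1, and *Tro* on the X chromosome (r from 0.739 to 0.813), and for *Nnat* they were *Pld4*, *Fah* and *Steap1* (r from 0.898 to 0.902). The correlation of *Nap1l5* with *Herc3* was −0.145 and that of *Nnat* with *Blcap* 0.211. These values describe 18 libraries that fall into 6 groups, so the points share group and line.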

How the data were processed

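Strand-specific polyA RNA-seq of 18 libraries in 6 groups of 3 was used, and 82 samples of amplicon methylation were not analysed here. Per the labels and the study's methods, the authors trimmed reads with Trim Galore 0.6.1, mapped them to GRCm38 with HISAT2 2.1.0, separated BL6 and CAST reads by SNPs and counted mRNA per gene. The deposited log2 values, which the authors call log2 RPKM, are RPM (reads scaled to the library total) without length correction. A gene without reads is held at 0.9 read, and whole reads were recovered within 0.05 read for at least 99.97% of values.

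Levels were tested by limma 3.58.1 (R 4.3.3) with an intensity trend on the deposited log2 values, for genes above 0 in at least 3 libraries, with Benjamini-Hochberg adjustment over all genes and a threshold of 0.05. Allelic ratios were log2((maternal + 0.5)/(paternal + 0.5)) for genes with at least 5 allelic reads in at least 2 libraries of every group. In the limma fits with a mean for each group, p-values measure the spread between libraries of a group. The main fit between the sexes has no term for line, so its spread also holds differences between lines of the same sex. Nested genes were compared with hosts by exact permutation tests (scipy 1.17.1), adjusted over the pairs. Permutation tests over libraries pool the pluripotent lines, so their p-values mix the spread within and between lines. Alternatives were a pseudocount of 1, other filters and read minimums, median-of-ratios scaling, limma-voom on recovered reads, weights, a replicate block and leaving out libraries. The fits were tested on simulated data. Named genes were the 8 members, source and related genes, imprint maintenance genes and, for each nested gene, the 3 genes most like it in level. The members and lists were chosen with earlier results of these data known. Each nested gene carries the gene identifier of its host in the table, so genes were matched by symbol and position.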

Additional observations from a re-analysis of the deposited data

Results flagged for a closer look

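*Mcts2* in M KSR5 replicate 1 had a maternal share of 67.6%, set apart from the other 5 male iPSC libraries, the nearest of which was at 53.2% (gap over range 0.859, above Dixon's 95% value for 6 libraries). Over 28 such sets of 6 libraries this was the 1 that passed, and chance passes about 1 in 20. The value rests on 37 allelic reads.

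In level, *Nnat* (log2 difference 5.29) and *H13* (1.17) differed between the iPSCs and TX 2i ESCs, by the limma contrast of those groups. In the allelic ratio *Herc3* (1.58) differed between the same groups, and without F KSR2, where chromosome 6 was maternal, its difference was 0.05.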

How the results depend on the processing

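The calls of *Mcts2*, *H13*, *Zrsr1*, *Commd1* and *Blcap* in level and of *Mcts2*, *H13* and *Zrsr1* in allelic ratio, between pluripotent groups and MEFs, held with their direction under all 25 alternatives (24 for *Mcts2* in allelic ratio, which a minimum of 20 allelic reads leaves untested). The adjusted p of *Commd1* there reached 0.0479 (limma). *Nnat*, uncalled there, was called under 6 of 25 alternatives (adjusted p over all 25 from 0.0144 to 0.115, lowest without F KSR4 replicate 3). *Herc3* in level between iPSCs and TX 2i ESCs was called under 3 of 25. The direction turned for uncalled differences only: *Nap1l5* in level was −0.045 with median-of-ratios scaling and −0.23 to 0.39 with 1 library left out (lowest without MEF replicate 1), *Herc3* in level was −0.11 with that scaling, −0.040 without F KSR2 and −0.24 to 0.32 with 1 library left out (lowest without MEF replicate 1), *Commd1* in allelic ratio was −0.059 to 0.31 with 1 library left out (lowest without MEF replicate 2), and *Herc3* between the sexes in allelic ratio was −0.015 without F KSR2. Leaving out 1 library gave −0.083 to 0.25 for *Nap1l5* minus *Herc3* in level and −1.27 to 1.89 percentage points for *Commd1* minus *Zrsr1* in share. It also moved the uncalled *Nnat* minus *Blcap* shift from 0.36 to between 0.13 (without F KSR4 replicate 3) and 0.78 (without TX 2i ESC replicate 1), and *H13* minus *Mcts2* in share from −2.41 to between −4.14 (without TX 2i ESC replicate 2, exact permutation test, adjusted p = 0.0859) and −1.58 percentage points.

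Between the sexes, 390 genes were called in level as reported, 232 without a filter, 138 with line as a random effect, 87 without F KSR2 (chosen after seeing the data), 1523 with all 18 libraries fitted, and 187 to 521 with 1 library left out. *Zrsr1* became the 1 called member with median-of-ratios scaling and with all 18 libraries, and members called ranged from 0 to 1 with 1 library left out (called without F KSR4 replicate 2). In allelic ratio, 389 genes were called between the sexes, and 1562 with all 18 libraries, when *Herc3* became the 1 called member. Between iPSCs and TX 2i ESCs, genes called in level numbered 3372, and 2125 to 4317 with 1 library left out, lowest without each TX 2i ESC library in turn. Members called in allelic ratio went from 1 to 0 without F KSR2, and ranged from 0 to 1 with 1 library left out (lost without TX 2i ESC replicate 3). The cause was not tested.

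The replicate numbers gave no clear pairing of the samples, and a weak one is not excluded. Same-numbered libraries of different groups had a median correlation of deviations of 0.04 (−0.20 to 0.38 over 45 pairs). Libraries with other numbers had −0.01 (−0.43 to 0.34 over 90 pairs), and 9 of 18 libraries correlated best with their own number. With the replicate block 5 members were called in level between pluripotent groups and MEFs, as without it, and the counts of members called between the sexes and between iPSCs and TX 2i ESCs were the same, while calls over the 15 pairs of groups went from 37 to 38. Few allele-assigned reads limit the shares: 1.83% of *Nap1l5* reads and 0.0436% of *Nnat* reads were assigned, against 14.5% for *Mcts2*.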
